A study of Homo sapiens with 18 samples.

Results

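Polyamine synthesis in NCI-H1975 cells was followed through 8 of the 61487 counted genes: ODC1, AMD1, SRM and SMS, which make polyamines, OAZ1, OAZ2 and AZIN1, which control ornithine decarboxylase, and SAT1, which starts polyamine breakdown. They were chosen by name, as a pathway known for control at the level of translation, and all 8 were found in all 18 libraries. NCI-H1975 is an established lung adenocarcinoma cell line. Each of 3 conditions was profiled in 3 libraries of poly(A) mRNA and in 3 libraries of ribosome footprints, the RNA stretches that ribosomes protect from nuclease. The conditions are Scramble, a control whose construct the labels do not describe, sgControl, labelled as the CRISPR control, and sgDAMP, the CRISPR knockout of the peptide DAMP, which the series title places in the lncRNA DSP-AS1. Cells of all 3 conditions were treated with 100 micrograms per ml cycloheximide before harvest for footprints. The sources used here give neither the guides nor whether the knockout cells are a clone or a pool.

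Polyamines (putrescine, spermidine and spermine) are small cations that bind RNA and are needed for growth, and many tumours make more of them. Ornithine decarboxylase, encoded by ODC1, makes putrescine. The S-adenosylmethionine decarboxylase AMD1 supplies the aminopropyl groups that spermidine synthase (SRM) and spermine synthase (SMS) add to it. The pathway is known for feedback through ribosomes: high polyamines raise the frameshift that ribosomes must make to read the antizyme mRNAs OAZ1 and OAZ2. Antizyme sends ornithine decarboxylase to the proteasome, and the antizyme inhibitor AZIN1, an inactive relative of ornithine decarboxylase, binds antizyme in its place. Gene-level counts hold neither the reading frame nor the position of a footprint, so frameshifting itself was not measured.

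The places of the genes are given as RefSeq has them on GRCh38.p14, and the submitters' processing notes name GRCh38 for the counts. ODC1 (ENSG00000115758) spans chromosome 2 from 10439968 to 10448327, and AMD1 (ENSG00000123505) chromosome 6 from 110814617 to 110895713. SRM (ENSG00000116649) spans chromosome 1 from 11054589 to 11060018, and SMS (ENSG00000102172) chromosome X from 21940709 to 21994837. OAZ1 (ENSG00000104904) spans chromosome 19 from 2269486 to 2273488, and OAZ2 (ENSG00000180304) chromosome 15 from 64687574 to 64703281. SAT1 (ENSG00000130066) spans chromosome X from 23783173 to 23786210, and AZIN1 was counted as ENSG00000155096.

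The leader of AMD1 holds a short upstream open reading frame that is known to stall ribosomes when polyamines are high. It is shown because footprints on it cannot be separated in the counts from those on the AMD1 coding sequence. RefSeq (GRCh38.p14) has it on chromosome 6 from 110874796 to 110874816 on the plus strand, and the capitals mark the 21 bases from start codon to stop codon, with 6 codons before the stop.
AMD1 upstream frame: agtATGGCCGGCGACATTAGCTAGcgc
A complete frame from ATG to a stop within the first 50 transcribed bases was found in 10.2% of the 35116 RefSeq start-site windows. Of the 7 members with such windows, AMD1 was the 1 that held such a frame, in 2 of its 3 windows, whose starts lie 1 base apart.

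Depth differed between the conditions. Scramble libraries held 10859527 to 12424884 gene counts in mRNA and 1035159 to 1302852 in footprints. The libraries of sgControl and sgDAMP held 17098397 to 17464782 in mRNA and 6207783 to 7840852 in footprints. The 3 footprint libraries of sgControl agreed within sampling noise (mean chi-square per degree of freedom 0.909), as did those of sgDAMP (0.910). These means cover the 99% of genes with the lowest values, among genes with at least 30 summed counts. Each of these groups was therefore counted as 1 sample and summed. Protein-coding genes took 6.37% to 20.2% of Scramble footprints, against 76.3% to 79.3% in the other footprints. Reads on no annotated feature made up 42.5% to 43.2% of Scramble mRNA reads and 1.1% to 1.43% in the other mRNA libraries. Ambiguous reads, which fit more than 1 gene, made up 3.13% to 3.21% in Scramble mRNA and 13.7% to 14.7% in the other mRNA libraries. These differences between libraries and the Scramble condition cannot be told apart. The targeted lncRNA DSP-AS1 had 175, 176 and 216 footprints in the sgControl libraries and 0, 1 and 1 in those of sgDAMP, and its mRNA counts stood at 299, 328 and 309 and at 319, 324 and 336. KRT8 and KRT18, epithelial keratins, averaged 3770 and 2160 CPM (a gene's count scaled to a common total of gene counts) in Scramble mRNA and 12600 and 4360 CPM in sgControl, whereas the epithelial genes CDH1 (116 and 27.2 CPM) and EGFR (179 and 65.5 CPM) were lower in sgControl by their means. KRT19, EPCAM and the lung adenocarcinoma markers NKX2-1, NAPSA and SFTPB stayed below 1 CPM in the mRNA of each condition.

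Comparing Scramble with sgControl mRNA shows how far the 2 controls differ. AZIN1, AMD1 and SAT1 had higher mRNA in Scramble, and OAZ1, OAZ2, SRM and ODC1 had lower mRNA, whereas SMS did not pass. That is 7 of the 8 genes at an adjusted p under 0.05 (edgeR's quasi-likelihood test with Benjamini-Hochberg adjustment, n = 3 against 3). It is to be read against the 79.6% of all 16360 tested genes that passed, 46.1% as higher and 33.4% as lower. The median log2 difference was -0.34 over the 8 genes and 0.42 over all tested genes. In bulk libraries, fewer cells with a transcript and less of it per cell cannot be told apart.

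AZIN1 mRNA stood at 219, 247 and 202 CPM in Scramble libraries and at 13.2, 21.0 and 33.7 CPM in sgControl. The log2 difference was 2.49 (SE 0.27, adjusted p = 2.43e-05 by edgeR). AMD1 mRNA stood at 145, 165 and 124 CPM in Scramble and at 9.21, 16.7 and 22.5 CPM in sgControl, a log2 difference of 2.35 (SE 0.27, adjusted p = 3.26e-05 by edgeR). SAT1, the spermidine and spermine acetyltransferase, averaged 597 CPM (SD 22.8, n = 3) in Scramble and 148 CPM (SD 49.9, n = 3) in sgControl. Its log2 difference was 1.20 (SE 0.20, adjusted p = 3.95e-04 by edgeR).

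The antizymes went the other way. OAZ1 mRNA stood at 186, 200 and 222 CPM in Scramble and at 504, 517 and 522 CPM in sgControl (log2 difference -2.18, SE 0.16, adjusted p = 2.37e-06 by edgeR). OAZ2 averaged 63.2 CPM (SD 3.81, n = 3) against 153 CPM (SD 18.3, n = 3), a log2 difference of -2.10 (SE 0.15). SRM, spermidine synthase, averaged 79.4 CPM (SD 3.70, n = 3) against 284 CPM (SD 50.9, n = 3), a log2 difference of -2.68 (SE 0.21). ODC1 and SMS depend on the scaling. ODC1 averaged 155 CPM (SD 4.72, n = 3) in Scramble and 141 CPM (SD 38.5, n = 3) in sgControl, with a log2 difference of -0.69 (SE 0.18, adjusted p = 0.00596 by edgeR). The groups overlap, and the value turns to 0.14 (adjusted p = 0.535) when edgeR scales by total counts. SMS averaged 131 CPM (SD 5.0, n = 3) and 74.6 CPM (SD 30.4, n = 3), and its log2 difference went from 0.00 (adjusted p = 0.989 by edgeR) to 0.82 (adjusted p = 0.0171) with total counts, and to -0.10 with the size factors of DESeq2. Total counts move the median gene by 0.83 and the size factors of DESeq2 by -0.11. The calls then split into 9708 higher and 3156 lower with total counts, against 7544 and 5471 with TMM (trimmed mean of M values).

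**Figure D1:**
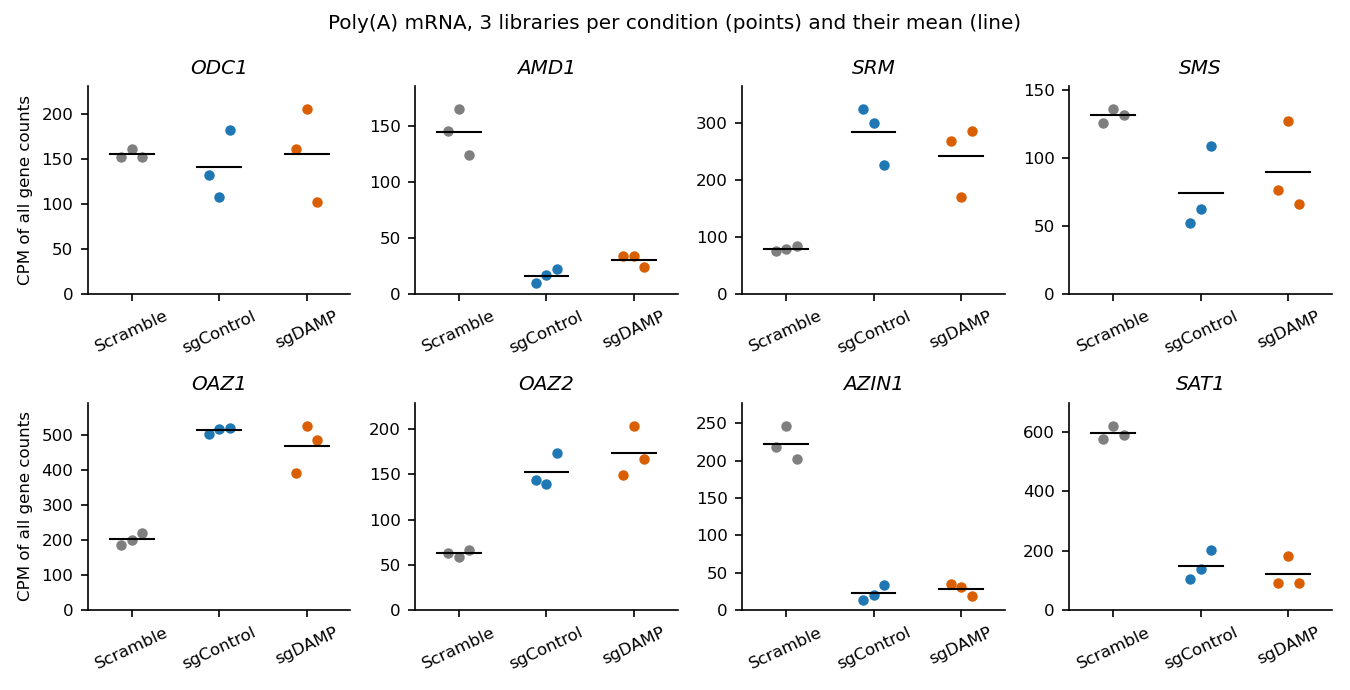
mRNA level of the 8 genes in CPM of all gene counts (y axis, from 0) by condition (x axis), 1 point per library in order of replicate number and a line at the mean of 3. AMD1, AZIN1 and SAT1 lie higher in Scramble, SRM, OAZ1 and OAZ2 lie lower there, and sgControl and sgDAMP libraries overlap for each gene except AMD1.

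Within sgControl and sgDAMP the mRNA of these genes varied widely from library to library. AZIN1 differed 2.55-fold between the highest and lowest sgControl library, AMD1 2.44-fold, SMS 2.09-fold and SAT1 1.94-fold, whereas OAZ1 differed 1.04-fold. In Scramble mRNA the same measure ran from 1.06-fold for ODC1 to 1.33-fold for AMD1. Replicate 3 of sgControl had the highest value for 7 of the 8 genes and the lowest for SRM. In sgDAMP, replicate 2 was highest for 6 of the 8 and lowest for SRM, and AZIN1 was highest in replicate 1. Such spread was not limited to these genes. The chi-square measure applied above to footprints gave 38.4 in sgControl mRNA and 64.7 in sgDAMP mRNA, against 4.11 in Scramble mRNA. How many of all genes peaked in the same replicates was not counted.

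Scramble footprints were few, and their levels depend on what they are scaled to. AMD1 had 22, 9 and 11 footprints in the Scramble libraries, SMS 15, 24 and 4, SAT1 42, 33 and 26, and ODC1 22, 13 and 13. Scaled to all gene counts, AMD1 averaged 11.9 CPM (SD 5.78, n = 3) in Scramble and 149 CPM in sgControl, and SMS averaged 13.0 CPM (SD 10.1, n = 3) and 193 CPM. Scaled to the counts of coding genes alone, the summed libraries stood closer for AMD1 (80.2 CPM, 95% counting interval 57.8 to 108, against 188, 182 to 195) and for SMS (82.1, 59.4 to 111, against 244, 237 to 252). AMD1 and SMS were lower in Scramble on both scales.

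Of the other 6 genes, ODC1 and SRM were higher and SAT1 lower in Scramble by their means on both scales, and AZIN1 and OAZ2 turned. OAZ1 was lower in Scramble on the scale of all gene counts (4.74 against 28.5 CPM by the means). On the scale of coding counts its mean was higher in Scramble (37.7 CPM, SD 26.6, against 36.1 CPM) and its summed value lower. On the scale of coding counts SAT1 stood at 193 CPM (157 to 234) in Scramble and 222 CPM (215 to 229) in sgControl, and OAZ1 at 30.6 CPM (17.5 to 49.6) and 36.0 CPM (33.3 to 38.9), with overlapping intervals. ODC1 stood at 91.7 CPM (67.6 to 122) against 15.0 CPM (13.3 to 16.9), and SRM at 136 CPM (106 to 171) against 10.4 CPM (8.97 to 12). AZIN1 stood at 87.9 CPM (64.3 to 117) against 23.7 CPM (21.5 to 26.1), and OAZ2 at 30.6 CPM (17.5 to 49.6) against 11.3 CPM (9.75 to 12.9). Scaled to all gene counts, AZIN1 averaged 13.5 CPM (SD 7.84, n = 3) in Scramble against 18.8 CPM, and OAZ2 averaged 4.64 CPM (SD 1.41, n = 3) against 8.97 CPM.

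Setting footprints against mRNA asks how densely ribosomes cover each transcript. Loading was taken as the log2 ratio of summed footprint to summed mRNA share, minus the median over protein-coding genes with at least 100 counts in each assay. Footprints come from coding sequence and mRNA reads from whole transcripts, so a gene's place also depends on the lengths of both, which were not used here. In sgControl the 8 genes spread from far above to far below the median of 6629 coding genes. AMD1 was highest at 3.07, the percentile 87.6, from 3344 footprints and 839 mRNA counts. SMS stood at 1.24 (percentile 68.5) and SAT1 at 0.11 (51.9), followed by AZIN1 at -0.40 (43.8).

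ODC1 stood at -3.71 (percentile 7.93), OAZ2 at -4.23 (4.80), OAZ1 at -4.31 (4.36) and SRM at -5.24 (1.16). Both antizymes lay near the bottom of the coding genes in sgControl, with SRM lower still. The coding genes themselves spread widely there, from -4.20 at the 5th percentile to 4.12 at the 95th, and less widely in Scramble. Whether low and high values in sgControl reflect ribosome density or the preparation of the libraries was not tested. The 95% counting intervals of OAZ1 (-4.42 to -4.19) and OAZ2 (-4.44 to -4.03) overlap. For SAT1 and AZIN1 the mRNA libraries taken one by one gave -0.34 to 0.62 and -0.98 to 0.37, which also overlap. AMD1, at 2.59 to 3.88, stayed above each of the other genes in the same comparison, the nearest being SMS at 0.69 to 1.75.

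The order in sgDAMP was similar, with AMD1 at 1.94 (percentile 77.5) and SRM at -4.56 (1.85) again at its ends, while SMS (0.71) and SAT1 (0.65) overlapped. OAZ1 stood at -4.42 and OAZ2 at -3.52, and their counting intervals, -4.55 to -4.29 and -3.68 to -3.36, no longer overlap. The intervals of SRM (-4.75 to -4.37) and OAZ1 overlap here. In each of these conditions 3 of the 8 genes, AMD1, SMS and SAT1, lay above the median coding gene, which became 2 to 4 in sgControl when 1 library was left out. With a minimum of 20 counts AZIN1 joined them in both conditions, at 0.01 and 0.02.

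Scramble cells gave another order. SRM was highest at -0.33 (percentile 38.4), and AMD1 stood at -1.97 (6.61), from 42 footprints against 5091 mRNA counts. SMS, ODC1 and OAZ2 stood at -1.78, -1.87 and -2.15, AZIN1 at -2.46, SAT1 at -2.74 and OAZ1 at -3.83. SAT1 was the 1 member with 100 or more Scramble footprints (101), and OAZ1 and OAZ2 rested on 16 each. The reference there is 984 genes chosen for at least 100 footprints, a choice that sets the zero high for members with fewer. Values in Scramble are therefore not on the same zero as those in sgControl and sgDAMP. With a minimum of 20, the values rise to -1.18 for AMD1, -3.05 for OAZ1 and 0.45 for SRM, which then lies above the median.

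**Figure D2:**
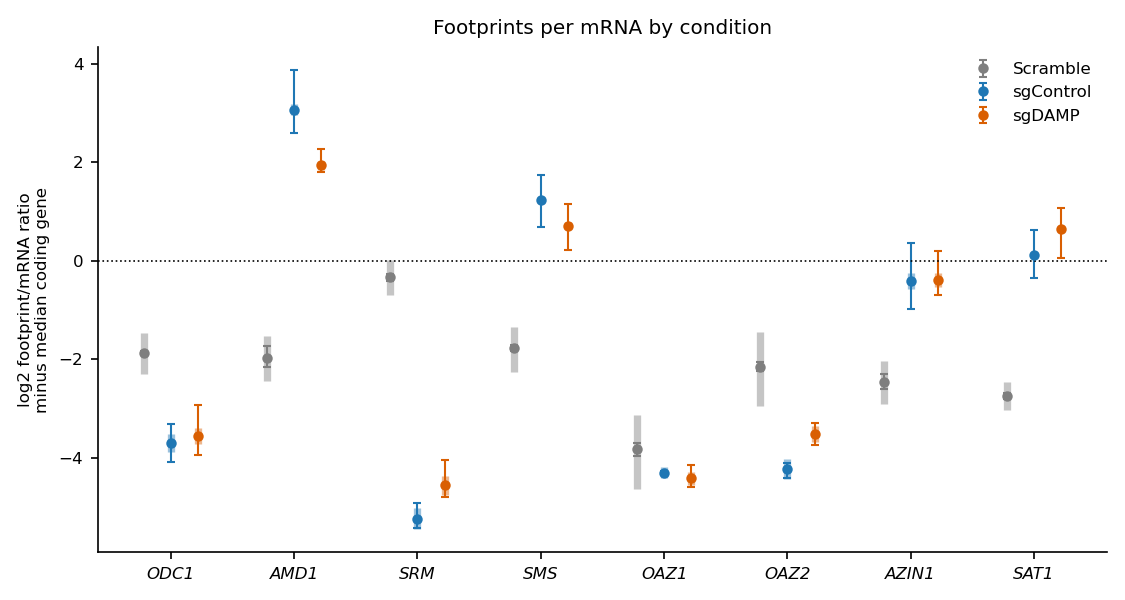
Footprints per mRNA (y axis, log2 ratio minus the median coding gene, dotted line at 0) for each gene and condition (colours). Points are ratios of summed counts, thin bars with caps the range over the 3 mRNA libraries and thick pale bars the 95% counting interval. AMD1 goes from 3.07 in sgControl and 1.94 in sgDAMP to -1.97 in Scramble, and SRM from -5.24 and -4.56 to -0.33. The zero differs by condition: in Scramble it is the median of 984 genes with at least 100 counts in each assay, a minimum that SAT1 alone of the members reaches. In sgControl and sgDAMP all 8 members reach it.

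Only Scramble has replicate libraries that differ beyond sampling noise in both assays, and there footprints were tested against mRNA. With TMM scaling over both assays, 7 of the 8 genes passed in edgeR (n = 3 against 3), 6 lower and SRM higher, where 44.5% of all 14432 tested genes passed, 17.1% as higher and 27.4% as lower. The median was -0.83 over the 8 genes, -0.68 over all tested genes and -0.45 over coding genes. OAZ1, with 2, 9 and 5 footprints against 2167, 2480 and 2414 mRNA counts, stood lowest at -2.61 (SE 0.35, adjusted p = 9.78e-07 by edgeR). SAT1 stood at -1.48 (SE 0.25, adjusted p = 2.21e-05) and AZIN1 at -1.23 (SE 0.24, adjusted p = 1.86e-04), both by edgeR.

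AMD1, ODC1 and OAZ2, at -0.73, -0.63 and -0.93, passed by small margins (adjusted p = 0.034, 0.0383 and 0.041 by edgeR). They did not pass with upper-quartile scaling or with a replicate block, nor when any 1 of the 3 Scramble mRNA libraries or footprint replicate 2 was left out (ODC1 and OAZ2 also without footprint replicate 1). SRM, at 0.87 (SE 0.25, adjusted p = 0.0064 by edgeR), had 42, 23 and 6 footprints. It did not pass with a replicate block (0.76, adjusted p = 0.0792) or without replicate 1 of the Scramble footprints (0.32, adjusted p = 0.474), and turned to -1.95 (adjusted p = 0.0021) with total counts, which shift the median gene by -2.84 and call 481 genes higher and 13049 lower, against 2464 and 3954 with TMM. OAZ1, AZIN1 and SAT1 passed whichever 1 library was left out. SMS, at -0.57, did not pass (adjusted p = 0.0863 by edgeR), but did in DESeq2 (-0.58, adjusted p = 0.0297). Set against the median coding gene, AMD1, ODC1 and OAZ2 stood at -0.28, -0.19 and -0.48, where their SEs were 0.28, 0.25 and 0.37. On that scale SMS stood at -0.12, AZIN1 at -0.78, SAT1 at -1.03, OAZ1 at -2.16 and SRM at 1.32.

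The knockout was first compared in mRNA. No polyamine gene passed in sgDAMP against sgControl (0 of 8 with edgeR, n = 3 against 3), beside 0% of all 14032 tested genes. At an unadjusted p under 0.05 there was 1 member, AMD1, beside 5.28% of all tested genes, and DESeq2 called 0 members. AMD1 mRNA stood at 9.21, 16.7 and 22.5 CPM in sgControl and at 33.3, 33.6 and 24.2 CPM in sgDAMP. The groups do not overlap, as for 11.1% of the 14134 genes with enough counts, and the log2 change was 0.79 (SE 0.32, adjusted p = 0.862 by edgeR). AMD1 is the only member whose groups do not overlap.

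ODC1 mRNA stood at 133, 108 and 183 CPM in sgControl and at 161, 206 and 102 CPM in sgDAMP, with a log2 change of 0.01 (SE 0.30, adjusted p = 0.993 by edgeR). The sgDAMP libraries span the whole range of sgControl. The other 6 genes had log2 changes from -0.39 for SAT1 (SE 0.34) and -0.38 for SRM (SE 0.30) to 0.20 for AZIN1 (SE 0.33). With SEs of 0.26 to 0.34 over the 8 genes, changes of this size were not detectable between these libraries.

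Footprints of the 2 conditions were compared as sums, 1 sample each, with no p-value. The ratio carries an exact 95% counting interval after TMM scaling, and a gene was called when the interval was clear of 1 and the ratio at least 1.5-fold. OAZ2 alone met this rule. Its footprints stood at 10.7, 7.52 and 8.73 CPM in the sgControl libraries and at 17.1, 15.4 and 18.6 CPM in those of sgDAMP, which do not overlap. The sums of 200 and 339 gave a ratio of 1.65 (1.38 to 1.97). This is 1 of 8 members called, beside 24% of 12509 genes, 13.7% as higher and 10.4% as lower. At 2-fold it was not called.

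Smaller ratios below 1 with intervals clear of it were found for AMD1, SMS and OAZ1. AMD1 footprints went from 145, 156 and 145 CPM to 126, 133 and 133 CPM, and the sums of 3344 and 2606 gave a ratio of 0.757 (0.719 to 0.797). SMS, which makes spermine, went from 194, 194 and 191 CPM to 174, 164 and 160 CPM (ratio 0.738, 0.705 to 0.773). OAZ1 went from 29.5, 28.8 and 27.2 CPM to 25.9, 22.4 and 25.8 CPM (ratio 0.746, 0.662 to 0.840). For these 3 genes each sgDAMP library lay below each sgControl library. Before TMM scaling the libraries of the 2 conditions do not overlap for any of the 8 genes, nor for 65.5% of the 12747 genes with enough counts, so the lack of overlap marks out none of them.

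SAT1 had 171, 183 and 171 CPM in sgControl and 212, 219 and 215 CPM in sgDAMP, a ratio of 1.06 (1.01 to 1.1) once scaled by TMM. The intervals of ODC1 (1.08, 0.913 to 1.28), AZIN1 (1.12, 0.982 to 1.28) and SRM (1.2, 0.987 to 1.47) include 1. In all, 5 of the 8 intervals are clear of 1, 3 below and 2 above, where 59.2% of all genes are, 29.6% below and 29.6% above. The median log2 ratio was 0.10 over the 8 genes and 0.01 over all genes. Total counts shift the median gene by 0.22 and call 2779 genes higher and 720 lower, and upper-quartile scaling calls 2004 and 1060, against 1708 and 1297 with TMM. No member changed direction under these scalings.

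**Figure D3:**
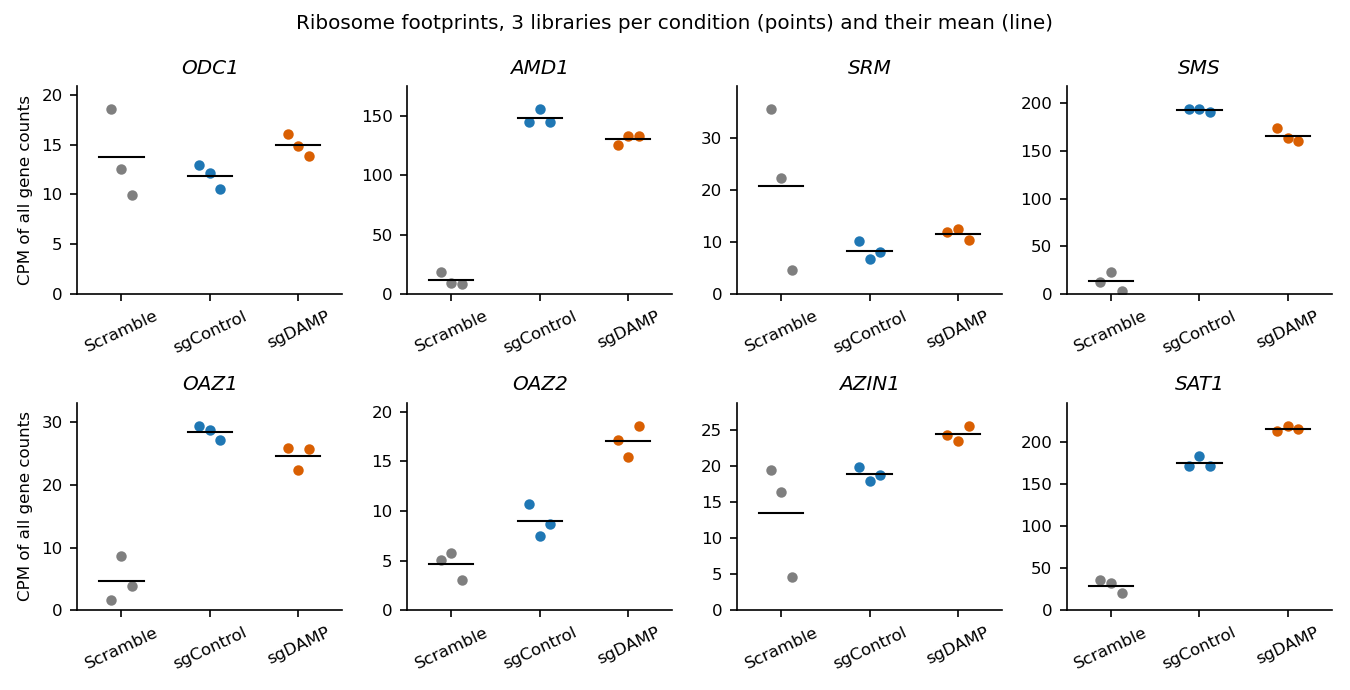
Footprint level of the 8 genes in CPM of all gene counts (y axis, from 0) by condition (x axis), 1 point per library in order of replicate number and a line at the mean of 3. The 3 libraries of sgControl, and those of sgDAMP, count as 1 sample each. AMD1, SMS and OAZ1 lie lower in sgDAMP than in sgControl, the other 5 genes higher, and AMD1, SMS, SAT1 and OAZ1 far lower in Scramble on this scale.

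AMD1 had a positive log2 value in mRNA (0.79) and a negative one in footprints (-0.40) in sgDAMP against sgControl. Footprints relative to mRNA were tested as the interaction of assay and condition, with the footprints of each condition as 1 sample and the spread taken from the mRNA libraries. AMD1 had the largest value of the 8, -1.18 (SE 0.64, adjusted p = 1 by edgeR). It did not pass with the footprint libraries as replicates either (-1.18, adjusted p = 0.0577 by edgeR). OAZ2 stood at 0.67 (SE 0.59), SRM at 0.66 (SE 0.65), SMS at -0.58 (SE 0.66) and SAT1 at 0.48 (SE 0.68). OAZ1, ODC1 and AZIN1 lay between -0.15 and 0.11 (SEs of 0.58 to 0.68). None of the 8 passed in edgeR or DESeq2, and 0 had an unadjusted p under 0.05, beside 0.258% of 19357 genes that passed (0.031% as higher and 0.227% as lower) and 5.47% with an unadjusted p under 0.05.

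**Figure D4:**
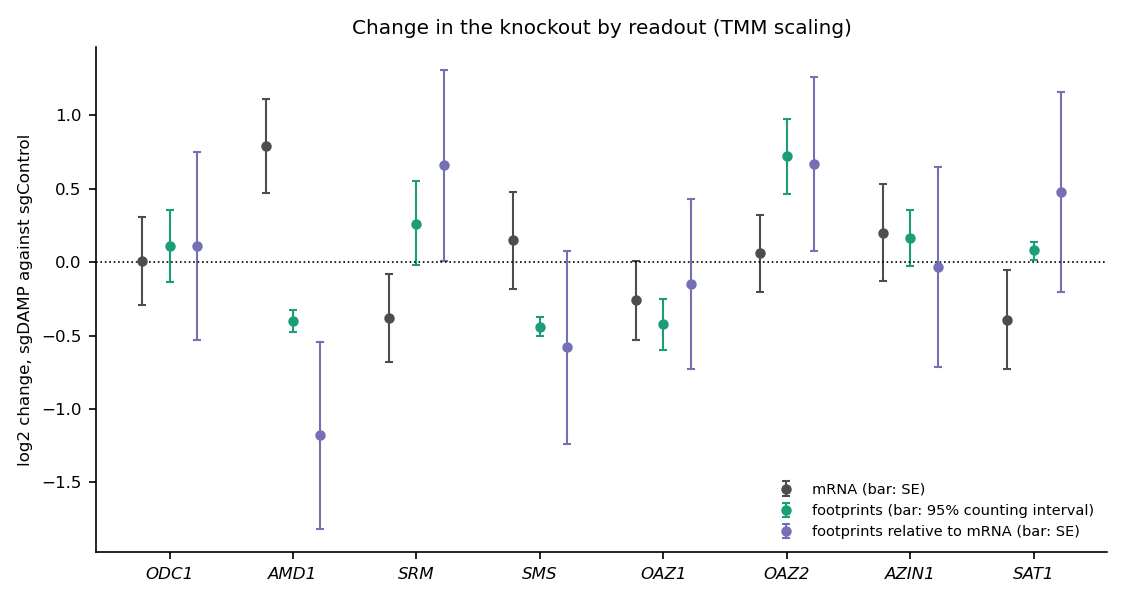
Log2 change in sgDAMP against sgControl (y axis) for each gene in mRNA, footprints, and footprints relative to mRNA (colours). Bars are SEs for mRNA and for the relative value, and 95% counting intervals for footprints. AMD1 lies at 0.79 in mRNA and -1.18 in footprints relative to mRNA, and OAZ2 at 0.72 in footprints.

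The balance of the enzyme and the antizyme OAZ1 was followed as the ratio of ODC1 to OAZ1 counts within each library, which no scaling between libraries alters. It compares libraries and is not a ratio of molecules, since the genes differ in length. In mRNA it stood at 0.263, 0.209 and 0.351 in sgControl, at 0.411, 0.390 and 0.210 in sgDAMP and at 0.815, 0.804 and 0.689 in Scramble. The ratio was higher in all 3 Scramble libraries than in any sgControl library, a log2 difference of 1.52, with p = 0.1 in a two-sided exact permutation test (0.200 adjusted over 2 tests), the smallest that 3 against 3 allows. Between sgDAMP and sgControl the groups overlap and the log2 difference was 0.27 (p = 0.500, same exact test, 0.500 adjusted).

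In footprints the ODC1 to OAZ1 ratio was 0.441, 0.425 and 0.387 in the sgControl libraries and 0.621, 0.662 and 0.540 in those of sgDAMP. How many other pairs of genes differ by as much was not counted. From the sums (267 and 640 against 297 and 491) the ratio in sgDAMP was 1.45 times that in sgControl (exact 95% interval 1.18 to 1.79), a comparison of 1 sample per condition. By itself ODC1 had a footprint ratio of 1.08 (0.913 to 1.28) and OAZ1 one of 0.746 (0.662 to 0.840). Against the antizyme OAZ2 the direction was the opposite: ODC1 had 267 footprints beside 200 in sgControl, and 297 beside 339 in sgDAMP. In Scramble footprints ODC1 exceeded OAZ1, with 48 counts against 16.

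**Figure D5:**
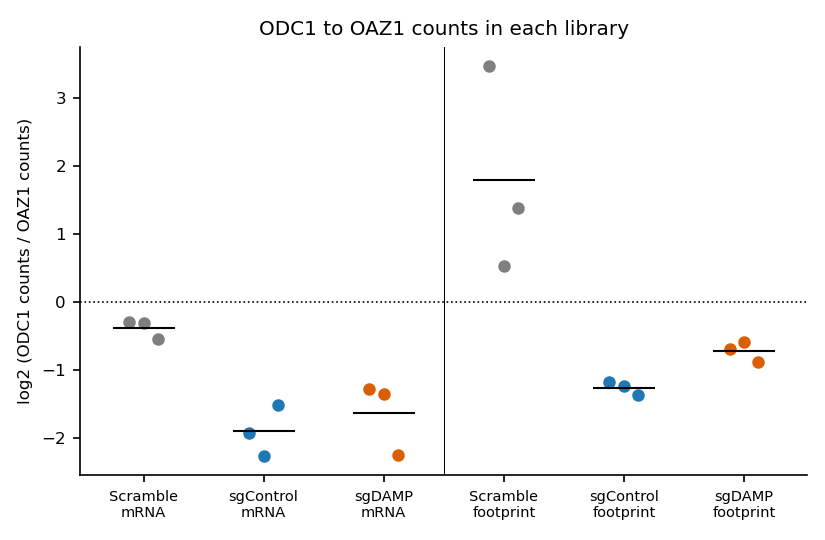
Log2 ratio of ODC1 to OAZ1 counts (y axis) in each library by group (x axis), mRNA left of the line and footprints right of it, with a bar at the mean of 3. Scramble libraries lie above the others in both assays, and the footprint libraries of sgDAMP lie above those of sgControl.

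Of 31 further genes of polyamine metabolism, transport and use, 25 were abundant enough to test in mRNA between sgDAMP and sgControl, and 0 passed (edgeR and DESeq2, 1 at an unadjusted p under 0.05). The median was -0.21, beside 0.03 over all genes. In footprints 20 had enough counts, of which 3 were called higher and 3 lower, a share near the 24% of all genes (13.7% higher and 10.4% lower). Higher were ADI1, a dioxygenase of methionine salvage (107 and 254 footprints, ratio 2.31, 1.83 to 2.92), SAT2, a relative of SAT1 (150 and 292, ratio 1.89, 1.55 to 2.32), and the transporter ATP13A3 (233 and 365, ratio 1.52, 1.29 to 1.80). Lower were MAT2A, which makes S-adenosylmethionine (12838 and 8654, ratio 0.655, 0.637 to 0.673), MRI1, also of methionine salvage (453 and 283, ratio 0.607, 0.521 to 0.706), and the arginase ARG2 (41 and 24, ratio 0.569, 0.329 to 0.964). Relative to mRNA 0 of 27 passed in edgeR or DESeq2, with 2 at an unadjusted p under 0.05, and the median was 0.09 beside 0.00.

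MTAP, the phosphorylase that recycles the by-product of both synthases, was nearly without assigned reads. It had 0 counts over the 3 Scramble mRNA libraries, 4 in sgControl mRNA and 3 in sgDAMP mRNA. Reads that fit several genes or several positions were counted for no gene. Whether MTAP lost reads that way was not tested, so these counts do not show that the gene is absent or silent. MTAP had too few counts to enter any test and was chosen for mention after its counts were seen.

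Between Scramble and sgControl mRNA, 11 of 25 were higher and 11 lower, where 46.1% of all genes were higher and 33.4% lower. The median was 0.65 beside 0.42 over all genes. Among those with the smallest p were ARG2 (6.16, SE 0.28) and OAZ3, the third antizyme (4.73, SE 0.32), as higher in Scramble. AHCY (-2.19, SE 0.18), the hypusine enzyme DOHH (-2.10, SE 0.20) and EIF5A, the factor that carries the spermidine-derived hypusine (-1.68, SE 0.18), were lower. ARG2 rests on 15 sgControl counts and OAZ3 on 35. The shares of ambiguous and no-feature reads differ between these mRNA sets. Whether reads were assigned to genes alike in both was not tested.

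In Scramble footprints against mRNA, 5 of 23 were higher and 7 lower, shares near the 17.1% and 27.4% of all genes. The median was -0.22 (also -0.22 with OAZ3 at its bound) beside -0.68 over all genes. The spermine oxidase SMOX (-2.52, SE 0.27) and MAT2A (-1.53, SE 0.24) were lower, and OAT (1.38, SE 0.22), ADI1 (1.49, SE 0.28) and AGMAT (2.09, SE 0.42) were higher. OAZ3 had 0 footprints against 1131 mRNA counts, at least 5.21-fold lower against a floor of 3 counts over the group. Whether those mRNA reads all come from OAZ3 was not tested.

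The coding genes whose mRNA pattern was most like that of ODC1 over the 9 mRNA libraries were INPP1 (Pearson r 0.954), DCTN5 (0.937) and RPA1 (0.935), out of 8272 compared. For OAZ1 they were LGALS1 (0.998), GPX1 (0.997) and TBCB (0.996). These are descriptions, and the libraries form separate sets: without Scramble, the 6 remaining libraries gave 0.960, 0.985 and 0.943 for the first 3 genes, and 0.989, 0.959 and 0.916 for the others.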

How the data were processed

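Libraries of poly(A) mRNA and ribosome footprints were grouped by title. The deposited values are raw counts per Ensembl gene, which the authors made with Trimmomatic 0.30, HISAT2 2.1.0, SAMtools 1.10 and HTSeq 0.11.2 on GRCh38, per the submitters' processing notes. The sources used here give neither annotation release nor strand setting. Reads with several positions were counted apart (23.6% to 25.2% of reads in sgControl and sgDAMP footprints, 45.2% to 48.2% in Scramble footprints). RefSeq names pseudogenes of AMD1 (4), SRM (3), OAZ1 (1) and SMS (1), and the span of AMD1 overlaps that of CDK19, so counts of these genes are uncertain to that extent. Reads assigned to no gene (22.2% to 95.8%) stayed out of library sizes.

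Genes were filtered with filterByExpr (minimum count 10), scaled by TMM (within each assay for the interaction) and tested with edgeR 4.0.16 in R 4.3.3 at an adjusted p under 0.05. All p-values are two-sided, and SE is the log2 change over the square root of F. Nothing in the labels tells if the replicates come from separate cultures, so p-values measure only the spread between these libraries, which may be technical. Intervals and floors (3 counts) hold for counting error alone: without molecular identifiers, reads can be copies of 1 molecule. Functions were tested on simulated data. Deviations of same-numbered libraries correlated from -0.610 to 0.501, without a common sign. Between sgControl and sgDAMP mRNA they gave 0.501, -0.388 and -0.610, so the main tests did not pair libraries by number. Footprint libraries of sgControl and sgDAMP differ by little more than sampling noise, so their correlations cannot show whether the numbers pair them. Alternatives were DESeq2 1.42.0, other scalings and filters, a replicate block, leaving out each library and, added after the data were seen, coding genes alone.

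The 8 genes, the list of 31, the tests and the rule for named genes were chosen with earlier results of these data known. Named were the 8 genes, called members of the list (up to 6 by p in a comparison), the 3 coding genes most like ODC1 and OAZ1 in log2(CPM + 1) among those with a mean of at least 10 CPM, and DSP-AS1. A gene that this rule names is not reported here.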

Additional observations from a re-analysis of the deposited data

How the results depend on the processing

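Among the 8 genes, 7 members were called between Scramble and sgControl mRNA under all alternatives run, with SMS in place of ODC1 under total counts. In Scramble footprints against mRNA the count of 7 became 4 with upper-quartile scaling, 3 with a replicate block, 2 with at least 10 counts in every library (where fewer genes are tested) and 4 to 7 with 1 library left out. The gene total there, 6418, became 13530 with total counts and 1143 with at least 10 counts in every library, and 4736 to 6525 with 1 library left out. The replicate block changed no other call of a member. With a minimum of 20 counts, 1 member lay above the median coding gene in Scramble, in place of 0, and 4 in place of 3 in both sgControl and sgDAMP. The count of genes called in mRNA of sgDAMP against sgControl, 0, became 14 with no count filter, 21 with DESeq2, and 0 to 6 with 1 library left out (6 without replicate 3 of sgControl). For footprints relative to mRNA, 50 became 451 with the footprint libraries as replicates and 215 with a replicate block added to them. At 2-fold, 1237 genes and 0 members were called in footprints, in place of 3005 and 1.

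Some signs turned. With total counts SRM in Scramble footprints against mRNA went to -1.95 and ODC1 in Scramble against sgControl mRNA to 0.14. In loading, the minimum of 20 counts turned SRM in Scramble (-0.33 to 0.45) and AZIN1 in sgControl (-0.40 to 0.01) and sgDAMP (-0.39 to 0.02). With 1 library left out, AZIN1 in sgControl spanned -0.65 to 0.21 and SAT1 there -0.17 to 0.61. ODC1 mRNA in sgDAMP went to -0.03 with DESeq2's size factors or test, -0.00 with no filter and -0.02 with the replicate block, and spanned -0.26 to 0.20 with 1 library left out. The same spans were -0.05 to 0.51 for AZIN1, -0.08 to 0.19 for OAZ2 and -0.19 to 0.43 for SMS. Relative to mRNA, AZIN1 went to 0.05 with total counts and spanned -0.35 to 0.20, and ODC1 spanned -0.07 to 0.36. SMS in Scramble against sgControl mRNA went to -0.10 with DESeq2's size factors or test and spanned -0.19 to 0.26. The cause was not tested. Depth limits the Scramble footprints, with 16 to 101 counts per member.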
